A study of Mus musculus with 3 samples.

Results

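The transcription factor genes Gata4, Gata6, Onecut2, Pdx1, Hnf4a, Hnf4g, Cdx1, Cdx2 and Osr2 were followed along the mouse small intestine and across the classes of its epithelium. They were chosen by symbol, 9 of the 31053 genes in the count matrices, and the 9 were found in each of the 3 libraries. Each library came from one stretch of the small intestine (duodenum, jejunum or ileum, split from proximal to distal). Each held epithelial cells and intraepithelial immune cells, pooled from 3 male C57BL/6N wildtype mice aged 12 weeks. Cells were detached with EDTA and DTT, sorted as propidium iodide negative, and captured with the 10x Genomics 3′ v3 kit. The pool hides differences between mice, and with 1 library per segment no test between segments could be made. Segment and library therefore cannot be told apart. A level below is the number of unique molecular identifiers (UMIs) of a gene per 10000 non-mitochondrial UMIs, with an exact Poisson 95% interval that covers counting error only.

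Each stretch of the gut epithelium carries its own set of transcription factors. GATA4 and GATA6 are zinc finger factors that bind the GATA motif, and GATA4 is known for keeping proximal intestine different from ileum. ONECUT2 is a cut-homeodomain factor, and PDX1 is a homeodomain factor of the pancreas, the gastric antrum and the duodenum. HNF4A and HNF4G are nuclear receptors that act together on genes of the mature enterocyte. CDX1 and CDX2 are caudal-type homeodomain factors that set intestinal rather than gastric identity. OSR2 is a zinc finger factor of the odd-skipped family.

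After filtering, 16686 of 27235 barcodes were kept, 4255 from duodenum, 4360 from jejunum and 8071 from ileum. Clusters named by fixed marker lists gave 3726, 3786 and 5157 enterocytes from duodenum, jejunum and ileum. The ileal enterocytes were shallower, with a median of 5516 non-mitochondrial UMIs against 8641.5 in duodenum and 8596.5 in jejunum, and held 13.0% mitochondrial UMIs at the median against 28.4% and 28.7%. The part of these gaps in the segment values was not tested. The ends of the gut matched their markers: 7 of 7 proximal markers were at least 2-fold higher in duodenal than in ileal enterocytes, and 7 of 7 ileal markers were at least 2-fold lower. The marker lists were chosen with earlier results of these data known, so the match is no independent check of the segments. Neighbouring segments were less clear-cut. Of the proximal markers, 4 of 7 were higher in duodenum than in jejunum and 1 (Apoa4) lower, and 4 of 6 were higher in jejunum than in ileum and 2 (Slc40a1 and S100g) lower. T cells served as the class that should lack the factors. In them, 12 enterocyte markers stood at a median of 27.7% of the enterocyte level in duodenum (35 T cells), 7.64% in jejunum (109) and 14.8% in ileum (1085). Hnf4a stood in T cells at 35.8%, 9.13% and 14.8% of its enterocyte level, close to those markers. Members beyond the range of the markers were Gata6 (43.7%) and Hnf4g (42.9%) above and Gata4 (6.62%, 1 UMI) and Osr2 (0 UMIs) below it in duodenum. In jejunum they were Osr2 above (35.8%, 10 UMIs) and Onecut2 (1.74%), Cdx1 (3.89%), Cdx2 (3.59%) and Pdx1 (0 UMIs) below. In ileum it was Hnf4g (11.05%) and Pdx1 (0 UMIs), both below. The counts of 0 cannot place a member below the markers, because their exact Poisson limits lay above the member's enterocyte level. These limits were 0.223 per 10000 for Osr2 in duodenum, and 0.0658 and 0.00739 for Pdx1 in jejunum and ileum. In all, 70 barcodes were found in 2 libraries, 21 of them among kept cells.

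Pdx1 and Cdx2 are neighbours on mouse chromosome 5, with 24956 bases between them, and are written here because their RNAs had different segment patterns. In GRCm38, Pdx1 lies at chr5:147269959-147275848 on the plus strand and Cdx2 at chr5:147300805-147307270 on the minus strand. Both are protein coding in GENCODE M21. Of the other members, Hnf4a lies at chr2:163506808-163572910, Hnf4g at chr3:3508030-3658052, Gata4 at chr14:63198922-63271692 and Osr2 at chr15:35296098-35303305. The bases just upstream of the annotated starts of the pair are given 5′ to 3′ on the strand of the gene, from the RefSeq promoter table (GRCm38.p6), which held 3 of the 9 members. The Pdx1 stretch is chr5:147269847-147269958 and the Cdx2 stretch chr5:147307271-147307499. Capitals would mark any match to the GATA motif AGATAA, the HNF4 motif CAAAGTCCA, the CDX motif TTTATG or the ONECUT motif ATCGAT on either strand, and there were 0 matches in either stretch, so that no letter is in capitals.
Pdx1: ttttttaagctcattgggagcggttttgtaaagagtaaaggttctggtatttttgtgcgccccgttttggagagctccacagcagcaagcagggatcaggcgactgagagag
Cdx2: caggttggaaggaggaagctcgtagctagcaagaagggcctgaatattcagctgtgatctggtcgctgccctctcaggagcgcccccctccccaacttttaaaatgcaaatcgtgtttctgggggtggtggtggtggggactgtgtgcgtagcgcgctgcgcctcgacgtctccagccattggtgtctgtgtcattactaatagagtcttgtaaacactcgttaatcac
Among 32851 upstream windows of 250 bases, 9.99% held the GATA motif, 0.384% the HNF4 motif, 10.8% the CDX motif and 0.728% the ONECUT motif. The absence of these letters says nothing about the factors.

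In enterocytes, Gata4, Gata6, Onecut2 and Pdx1 were highest in duodenum, as was Hnf4g, and Cdx1, Cdx2, Osr2 and Hnf4a were highest in ileum. The differences of Cdx2, Hnf4a and Hnf4g stayed under 2-fold. Between duodenum and ileum, Gata4, Gata6, Onecut2 and Pdx1 were at least 2-fold higher in duodenum, and Cdx1 and Osr2 at least 2-fold lower. Against these 4 and 2 of 9 members, 13.4% and 7.81% of the 7712 genes at 0.1 or more per 10000 in either segment passed the same 2-fold line upward and downward. Between duodenum and jejunum, Onecut2 and Pdx1 were higher and Osr2 lower, where 6.50% and 4.33% of 7536 genes were. Between jejunum and ileum, Gata4 and Onecut2 were higher in jejunum and Cdx1 and Osr2 lower, where 5.81% and 5.82% of 7264 genes were. The members' median log2 difference between duodenum and ileum, on the log2(level + 0.05) scale, was 0.57, and that of all genes compared was 0.15.

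Onecut2 showed the steepest graded fall. Its level was 5.07 in duodenum (5.00 to 5.14), 1.03 in jejunum (0.996 to 1.06) and 0.0288 in ileum (0.0238 to 0.0347, from 113 UMIs). Duodenum exceeded jejunum 4.94-fold (4.77 to 5.11), and jejunum exceeded ileum 35.6-fold (29.6 to 43.3). The 3 levels lay far outside one another's intervals. In cells with at most 20% mitochondrial UMIs the jejunal level was 0.656. Pdx1 had a single step. It stood at 0.606 in duodenum (0.581 to 0.631, from 2224 UMIs), at 0.00103 in jejunum and at 0.00102 in ileum, with 4 UMIs in each of the latter. The duodenal level was 589 times the jejunal one (230 to 2165). Jejunum and ileum did not differ beyond counting error, with a ratio of 1.01 (0.188 to 5.41). Pdx1 is also a gene of pancreas and gastric antrum, and some RNA of those tissues was present. In duodenal enterocytes 8 acinar genes summed to 0.281 per 10000, 3 islet genes to 0.00708 and 8 stomach or Brunner's gland genes to 0.135, with 1 acinar, 0 islet and 1 stomach or Brunner's gland gene at 0. In jejunal enterocytes, where Pdx1 was near 0, these sums were 1.51, 0.00180 and 0.00951, and in ileal ones 0.116, 0.00612 and 0.000510. The acinar RNA of jejunum was uneven over cells. Of 8101 acinar UMIs in all kept jejunal cells, 4926 came from 1 cell. A jejunal cell named enterocyte held 2022 UMIs of Ctrb1, against 32 in all other cells, and 0 of Pdx1. The part of RNA from other tissues in the Pdx1 level was not tested.

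The GATA pair fell together but by unequal amounts. Gata4 stood at 0.913 in duodenum, 0.678 in jejunum and 0.134 in ileum. Its drop lay mainly past the jejunum, 5.06-fold (4.61 to 5.57), against 1.35-fold (1.28 to 1.42) between duodenum and jejunum. Gata6 was higher than Gata4 in UMIs throughout, at 2.21, 1.69 and 0.890, and its duodenal level was 2.48 times the ileal one (2.39 to 2.58). A 3′ UMI count is not scaled by gene length, so levels of different genes give an order of counts only.

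Osr2 ran the opposite way. It rose from 0.0812 in duodenum (0.0722 to 0.0909) to 0.498 in jejunum and 1.10 in ileum (1.07 to 1.13), 6.13-fold (5.42 to 6.95) and then 2.21-fold (2.09 to 2.33). Cdx1 was alike in duodenum (0.432) and jejunum (0.458), with a ratio whose interval held no difference (0.881 to 1.01), and was 2.16 times higher in ileum (0.990) than in jejunum (2.04 to 2.29). Cdx2 stood at 1.13, 0.994 and 1.46. It was lowest in jejunum, and ileum exceeded jejunum 1.47-fold (1.41 to 1.53).

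Hnf4a was the factor with most UMIs in jejunum and ileum. Its level was 3.37 in duodenum, 4.49 in jejunum and 5.13 in ileum, and the ileal level was 1.52 times the duodenal one (1.49 to 1.55). Its paralogue Hnf4g stood at 1.83, 1.19 and 1.22. Duodenum exceeded ileum 1.51-fold (1.45 to 1.56), while jejunum and ileum did not differ beyond counting error (ratio 0.979, interval 0.940 to 1.02). The HNF4 genes thus ran in opposite directions at a size that falls under the 2-fold line.

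**Figure D1:**
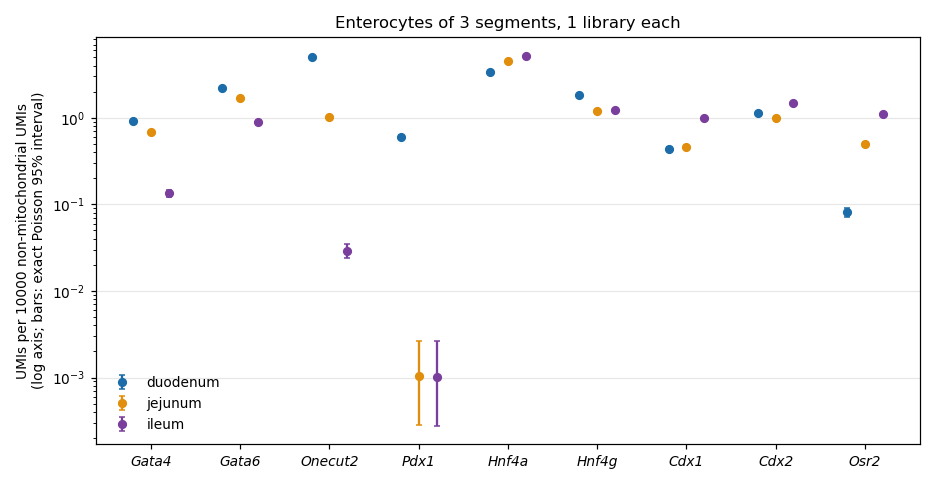
Levels of the 9 factors in enterocytes, in UMIs per 10000 non-mitochondrial UMIs on a log axis, 1 point per segment library with its exact Poisson 95% interval. Onecut2 steps down from 5.07 to 1.03 to 0.0288, Pdx1 stands near 0.001 outside duodenum, and Osr2 climbs from 0.0812 to 1.10.

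Shares of cells with a UMI were compared after thinning every cell to 2000 non-mitochondrial UMIs, which left out 128 duodenal, 89 jejunal and 415 ileal enterocytes. Onecut2 was found in 59.0% of duodenal enterocytes (exact binomial interval 57.4 to 60.6), 16.8% of jejunal and 0.759% of ileal ones. Before thinning these shares were 88.6%, 44.4% and 1.61%. Duodenal T cells gave 12.9% after thinning (4 of 31 cells), and jejunal and ileal T cells gave 0 of 103 and 0 of 1064, which allows up to 2.91% and 0.282% if a count of 0 allows 3 cells (exact binomial limits 3.52% and 0.346%). The ileal enterocyte share lay above both limits for ileal T cells, although T cells were shallower (median 4047 against 5516 UMIs before thinning). Osr2 was found in 1.83%, 8.47% and 18.0% of thinned enterocytes (6.47%, 32.6% and 40.8% before thinning). Ileal T cells gave 1.97%, and jejunal T cells 0 of 103 (6.42% before thinning). Pdx1 was found in 11.1% of thinned duodenal enterocytes (34.1% before), in 0 of 3697 jejunal and in 1 of 4742 ileal ones.

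UMIs of proximal and distal factors were counted together per cell; free RNA and doublets can also give both in a barcode, and their part was not tested. Among 3697 thinned jejunal enterocytes, 588 had Onecut2 without Osr2, 281 had Osr2 without Onecut2, and 32 had both, where the separate shares would give 52.5. Onecut2 was present in 10.2% of the cells with Osr2 and in 16.8% of all cells. In duodenum 29 cells had both against 38.9, and in ileum 2 against 6.48. For Gata4 with Osr2 the counts were 10, 52 and 17 in duodenum, jejunum and ileum, against 11.7, 38.6 and 26.1 from the shares, with no one direction. For Gata4 with Gata6 they were 231, 161 and 29, against 229.8, 135 and 24.6. For Hnf4a with Hnf4g they were 524, 390 and 537, against 562, 434.5 and 622, so below the shares in each library as well. By the villus score described below, jejunal Onecut2 was 2.80-fold higher at the tip and jejunal Osr2 1.98-fold higher at the bottom. The part of villus position in these counts was not tested. The counts of each segment come from cells of 1 library and carry no test.

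For most of the members the order of duodenum and ileum recurred outside enterocytes. Gata4, Gata6, Onecut2 and Pdx1 were higher in duodenum than in ileum in 5 of 5 epithelial classes, which besides enterocytes were stem and proliferating cells (ISC/proliferating), goblet, tuft and enteroendocrine cells (EECs). Cdx1, Cdx2 and Osr2 were higher in ileum in 5 of 5. Hnf4a was higher in ileum in 4 of 5 and Hnf4g in 1 of 5. Some of these differences were within counting error, with a ratio whose interval held no difference. These were Gata6 (1.31 and 1.09) and Cdx2 (1.72 and 1.80) in ISC/proliferating cells. They were also Hnf4g in ISC/proliferating cells and EECs, and Hnf4a in tuft cells and EECs. The intervals of the duodenal and ileal levels overlapped as well for Gata6 and Cdx2 in tuft cells and EECs, and for Hnf4a in goblet cells. Paneth cells (7, 8 and 11 cells) were too few to be tested. The classes of a segment share a library. In the 4 other classes the 12 enterocyte markers stood at a median of 6.03% to 15.5% of the enterocyte level.

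Onecut2 stepped down in each class. In EECs, which secrete gut hormones, it stood at 5.44 in duodenum (4.91 to 6.01), 1.48 in jejunum and 0 in ileum, where a count of 0, taken to allow 3 UMIs, allows up to 0.0413 (exact Poisson limit 0.0507). In goblet cells, which make mucus, it stood at 3.42, 1.34 and 0.0355, and in ISC/proliferating cells at 3.51, 1.28 and 0.0142. Tuft cells, the chemosensory class, were lower in the proximal segments, at 1.90 and 0.50, with 1 UMI in ileum. Gata4 fell past the jejunum in each class outside enterocytes. It went from 0.745 to 0.592 to 0.0426 in ISC/proliferating cells and from 0.312 to 0.226 to 0.0271 in goblet cells. In duodenum and jejunum it stood at 0.364 and 0.391 in tuft cells and at 0.433 and 0.492 in EECs. Between these segments Gata4 did not differ beyond counting error in any class outside enterocytes. Its ileal values outside enterocytes rest on 1 to 13 UMIs per class.

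Outside duodenum, Pdx1 had its highest level in jejunal EECs. They had 7 UMIs in 4 of 24 cells, a level of 0.265 (0.106 to 0.546), against 0.00103 in the enterocytes of the same library and 0 UMIs in its 109 T cells. These EECs were deeper than T cells, with medians of 10116.5 and 4434 UMIs. Of these 7 UMIs, 5 came from the 7 cells whose log-normalized Gip value (natural log) was above 4, a level of 0.429 (0.139 to 1.00), and 2 from the other 17 cells. In duodenum the level was 1.02 in 10 cells past that threshold (0.585 to 1.66) and 0.394 in the other 43 (0.247 to 0.596). Gip encodes the incretin hormone of K cells. Ileal EECs had 0 UMIs in 94 cells. This split of EECs was described after Pdx1 was seen in jejunal EECs.

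Osr2 in the other classes followed its enterocyte order, from 0.0416 to 0.551 to 0.595 in goblet cells and from 0.0583 to 0.628 to 0.689 in ISC/proliferating cells. Jejunum and ileum were close in these classes. Duodenal tuft cells had 0 UMIs, which by the same 3 UMIs allows up to 0.0575 (exact Poisson limit 0.0707), against 0.695 in jejunal (0.475 to 0.981) and 1.15 in ileal tuft cells (0.946 to 1.40). Cdx1 reached its highest levels in tuft cells, 1.59 in duodenum (1.27 to 1.97), 3.21 in jejunum (2.72 to 3.78) and 4.38 in ileum (3.96 to 4.83). These were 368%, 702% and 442% of the enterocyte levels. After thinning, 60.7% of ileal tuft cells had Cdx1 (52.9 to 68.2; 79.3% before thinning, median depth 3754.5), against 2.35% of ileal T cells (median depth 4047).

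**Figure D2:**
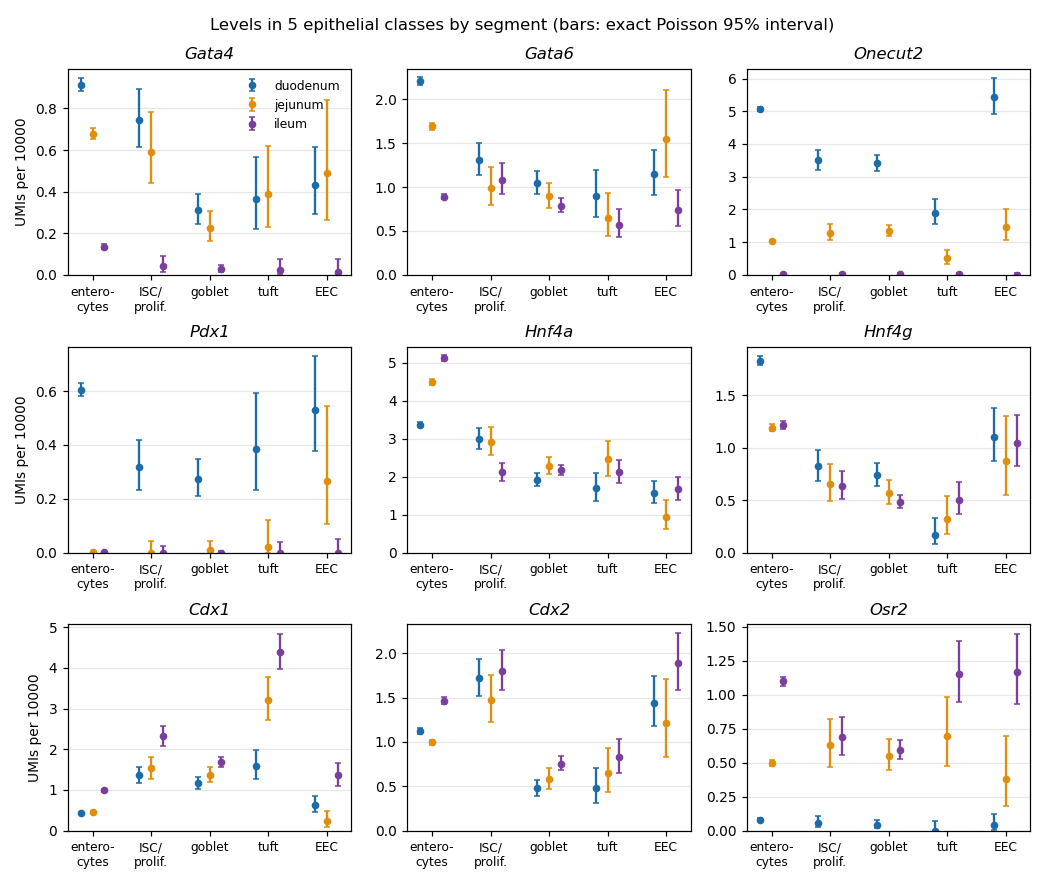
Levels of each factor in 5 epithelial classes, in UMIs per 10000 non-mitochondrial UMIs from 0, coloured by segment, with exact Poisson 95% intervals. In ileum Onecut2 is at most 0.0355 and Gata4 at most 0.134 in any class, Osr2 is at most 0.0812 in duodenum, and Cdx1 peaks in tuft cells at 1.59, 3.21 and 4.38.

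Enterocytes were next set against the other classes within the libraries. Counts were summed per library and class, and edgeR's quasi-likelihood test was fitted over 15 sums and 11025 genes with the library as a block. Changes are log2 fold changes with standard errors, and p-values are adjusted by Benjamini-Hochberg over all genes tested. The 3 libraries are different segments and the only replicates. The spread was estimated over all 15 sums together. A p-value is therefore no measure of how even 1 class difference was across segments. For example, Hnf4a against ISC/proliferating cells had log2 ratios of 0.54, 1.36 and 1.91 in duodenum, jejunum and ileum with TMM scaling. Scaling mattered. Under TMM, 53.5%, 53.7%, 53.2% and 52.0% of the calls were higher in enterocytes against ISC/proliferating, goblet, tuft and enteroendocrine cells, and 35.0%, 76.2%, 36.4% and 33.1% by plain library size. The median over all genes moved from 0.11, 0.04, 0.06 and 0.04 to −0.46, 0.45, −0.29 and −0.42. A call is named below as kept only where it held under both scalings.

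Against ISC/proliferating cells, Hnf4a and Hnf4g were higher in enterocytes and Cdx1 lower under both scalings. Hnf4g stood at 1.83, 1.19 and 1.22 in enterocytes and at 0.822, 0.652 and 0.632 in ISC/proliferating cells of duodenum, jejunum and ileum. Its log2 fold change was 1.56 ± 0.25 (SE, adjusted p = 4.36e-05, edgeR) and it was higher in 3 of 3 libraries. Hnf4a changed by 1.27 ± 0.24 (adjusted p = 0.000247), also in 3 of 3. Cdx1 was at 1.36, 1.53 and 2.31 in ISC/proliferating cells against 0.432, 0.458 and 0.990 in enterocytes, and changed by −0.95 ± 0.27 (adjusted p = 0.00608). In all, 6 of 9 members were called higher and 1 lower, where 35.6% and 31.0% of all genes were. Of the 6, Gata4 (1.13), Gata6 (0.98), Onecut2 (0.76) and Osr2 (0.93) lost the call by plain library size, with adjusted p of 0.0739, 0.104, 0.538 and 0.413. Cdx2 had 0.08 ± 0.17 under TMM and −0.50 by library size (adjusted p = 0.0131). Onecut2 also lost its call without the duodenum (adjusted p = 0.130) or jejunum library (0.0579), and Osr2 without the ileum library (0.166). Pdx1 had 0.86 ± 0.92 and was called higher only without the jejunum library (1.40, adjusted p = 0.0122).

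Against goblet cells, Gata4, Hnf4a, Hnf4g and Cdx2 were higher in enterocytes and Cdx1 lower, under both scalings and in 3 of 3 libraries each. Gata4 stood at 0.312, 0.226 and 0.0271 in goblet cells, and its change was 1.38 ± 0.28 (adjusted p = 0.000879). Cdx1 stood at 1.17, 1.37 and 1.68 in goblet cells and changed by −1.68 ± 0.27 (adjusted p = 0.000142). Hnf4g changed by 0.82 ± 0.24, Hnf4a by 0.62 ± 0.23 and Cdx2 by 0.57 ± 0.17 (adjusted p of 0.0117, 0.0454 and 0.0135). Over all genes, 21.4% were called higher and 18.5% lower. Leaving out the jejunum library took the count of genes called from 4401 to 2812 and ended the calls of Hnf4a, Hnf4g and Cdx2 (adjusted p of 0.179, 0.115 and 0.0821), and leaving out the ileum library ended those of Hnf4a and Cdx2 (0.180 and 0.0612). At most 20% mitochondrial UMIs per cell, Hnf4a and Hnf4g were not called either (0.273 and 0.0925). Gata6 (0.32 ± 0.21) was called by library size alone (0.74, adjusted p = 0.00916).

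Against tuft cells, Gata4, Gata6, Onecut2, Hnf4a, Hnf4g and Cdx2 were higher in enterocytes and Cdx1 lower, 7 calls that held under both scalings, in 3 of 3 libraries and with any 1 library left out. Over all genes 26.1% were called higher and 23.0% lower. Hnf4g stood at 0.172, 0.326 and 0.507 in tuft cells and changed by 2.30 ± 0.28 (adjusted p = 6.69e-06). Cdx1 changed by −1.97 ± 0.28 (adjusted p = 3.06e-05). Gata4 changed by 1.73 ± 0.33, Onecut2 by 1.59 ± 0.29, Gata6 by 1.46 ± 0.24, Hnf4a by 1.41 ± 0.24 and Cdx2 by 1.21 ± 0.19. Osr2 (0.34 ± 0.32) and Pdx1 (0.31 ± 1.03) were not called.

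Against EECs, Hnf4a and Gata4 were higher in enterocytes under both scalings. Hnf4a stood at 1.58, 0.946 and 1.68 in EECs, and its change was 2.03 ± 0.25 (adjusted p = 7.08e-06). Gata4 stood at 0.433, 0.492 and 0.0138, and changed by 1.61 ± 0.34 (adjusted p = 0.000802). Gata6 (0.92 ± 0.23) and Hnf4g (0.91 ± 0.25) were called under TMM but not by library size (adjusted p of 0.0914 and 0.142), nor without the duodenum library for Gata6 (0.0777) and the jejunum library for Hnf4g (0.0623). Those 4 of 9 members were set beside 28.9% of all genes called higher, and 0 of 9 beside 26.6% called lower. Onecut2, Cdx1 and Cdx2 had 0.20 ± 0.27, 0.13 ± 0.30 and 0.10 ± 0.18. These 3 turned to −0.22, −0.34 and −0.36 by library size. Osr2 (0.62 ± 0.34) and Pdx1 (−0.87 ± 1.01) were not called either.

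**Figure D3:**
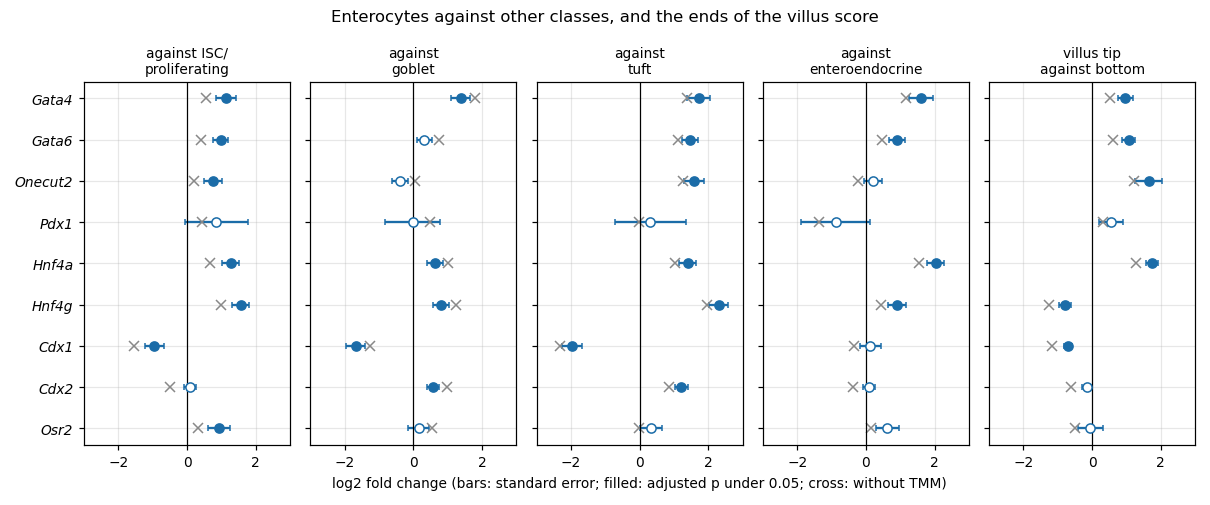
Log2 fold changes of the 9 factors in 5 contrasts (circles, TMM scaling, with standard errors; filled where the adjusted p is under 0.05; crosses, plain library size). Cdx1 is to the left of 0 against ISC/proliferating, goblet and tuft cells at −0.95, −1.68 and −1.97, while Hnf4a and Hnf4g are to the right in all 4 class contrasts.

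Along the villus, the HNF4 paralogues went in opposite directions. Enterocytes of each library were ranked and split into 3 equal parts (bottom, middle and tip) by the share of 7 villus-tip marker UMIs (such as Ada, a purine salvage enzyme) among those of the 7 tip and 7 villus-bottom markers (such as Reg3g, an antimicrobial lectin). None of the 9 factors is among them. The parts are ranges of a score, not cell types. Within 0.05 of a boundary lay 718 of 3725, 1032 of 3785 and 818 of 5157 scored cells of duodenum, jejunum and ileum. Median depth fell from 11547 at the bottom to 6549 UMIs at the tip in duodenum, and rose from 4894 to 6637 in ileum. Hnf4a rose from 2.38 to 5.24 in duodenum, from 2.70 to 6.49 in jejunum and from 2.76 to 7.73 in ileum. Hnf4g fell from 1.90 to 1.34, from 1.70 to 0.488 and from 1.72 to 0.627.

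In the edgeR fit over 9 sums and 11428 genes, tip against bottom, Hnf4a changed by 1.75 ± 0.18 (adjusted p = 9.23e-05) and Hnf4g by −0.79 ± 0.18 (adjusted p = 0.00431). Gata6 (1.06 ± 0.18), Gata4 (0.96 ± 0.22) and Onecut2 (1.65 ± 0.39) were higher at the tip, with adjusted p of 0.00112, 0.00502 and 0.00626. Cdx1 was lower (−0.71 ± 0.12, adjusted p = 0.00094). These 6 calls had their direction in 3 of 3 libraries and were kept under both scalings. They are 4 of 9 members higher and 2 lower, where 29.9% and 32.6% of all genes were. By library size the split of calls went from 47.8% to 25.7% higher at the tip, and the median over all genes from −0.05 to −0.50. Leaving out the jejunum library ended the calls of Onecut2 (adjusted p = 0.0726) and Hnf4g (0.0655). Cdx2 had −0.16 ± 0.14 and was called by library size alone (−0.61, adjusted p = 0.0197), and Pdx1 had 0.55 ± 0.34.

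The Onecut2 difference was uneven among segments. From bottom to tip it went from 4.55 to 5.46 in duodenum, from 0.594 to 1.66 in jejunum and from 0.00924 (14 UMIs) to 0.0569 (76 UMIs) in ileum. Its log2 ratio in UMIs per 10000 was 0.26 (0.21 to 0.31), 1.49 (1.37 to 1.60) and 2.62 (1.79 to 3.56). Osr2 turned direction. It went from 0.0548 to 0.135 in duodenum (89 and 120 UMIs), but from 0.652 to 0.330 in jejunum and from 1.62 to 0.576 in ileum. Its fitted change over the 3 libraries was −0.05 ± 0.36, and without the duodenum library −0.65 (adjusted p = 0.0103). Whether these segment differences exceed the spread between mice could not be tested.

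**Figure D4:**
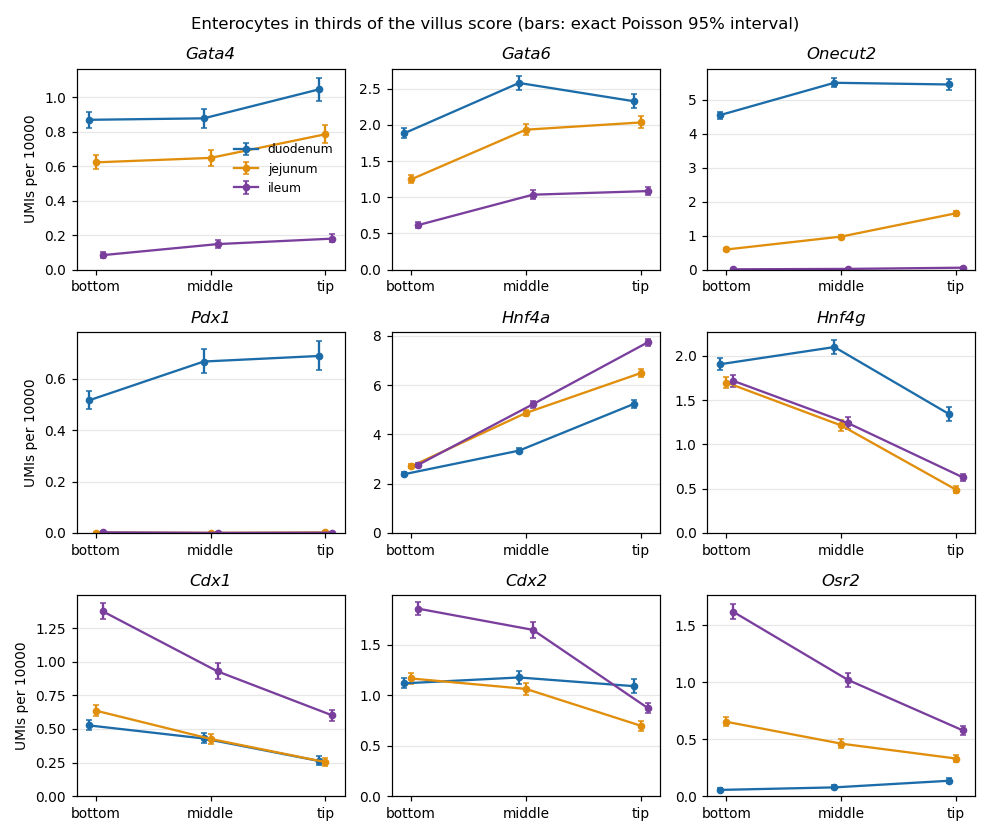
Levels of each factor in UMIs per 10000 in 3 equal parts of the villus score (bottom, middle, tip), 1 line per segment, with exact Poisson 95% intervals. Hnf4a climbs in all 3 libraries, Hnf4g falls at the tip, and Osr2 falls in jejunum and ileum while it goes from 0.0548 to 0.135 in duodenum.

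Each library spans a length of gut. To look inside them, enterocytes were ranked within each part of the villus score by the share of 7 ileal marker UMIs among the UMIs of these and the 7 proximal markers. They were split into 3 equal parts, and the most distal-like cells were set against the most proximal-like ones. This description was chosen after the segment values were seen and carries no test. Apoa4, one of the proximal markers, was itself 34.7-fold higher in tip than in bottom enterocytes of ileum. Between the parts compared here in ileum, it was 14.9-fold higher in the proximal-like cells. How much villus position remains in this ranking was not tested. In ileum, Onecut2 was 4.52-fold lower in the distal-like cells (17 against 63 UMIs, log2 ratio −2.18, interval −3.04 to −1.39). Gata4 was 2.73-fold lower (106 against 237 UMIs, −1.45, interval −1.79 to −1.11). In jejunum the ratios of Onecut2 and Gata4 were near 0, at 0.01 (−0.11 to 0.12) and 0.02 (−0.12 to 0.16). In duodenum, Pdx1 was lower (−0.72, interval −0.88 to −0.56) and Onecut2 slightly so (−0.30, interval −0.35 to −0.25). Osr2 was higher in the distal-like cells of each library, by 1.03, 0.65 and 0.37 in duodenum, jejunum and ileum. Cdx1 was higher by 0.53, 0.44 and 0.42 and Cdx2 by 0.42, 0.15 and 0.57. Gata6 was lower by log2 ratios of −0.38 in jejunum and −0.45 in ileum, while duodenum had −0.05 (−0.13 to 0.03). Hnf4g was higher by 0.14, 0.62 and 0.21 in duodenum, jejunum and ileum, and Hnf4a had −0.19, 0.14 and −0.12.

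**Figure D5:**
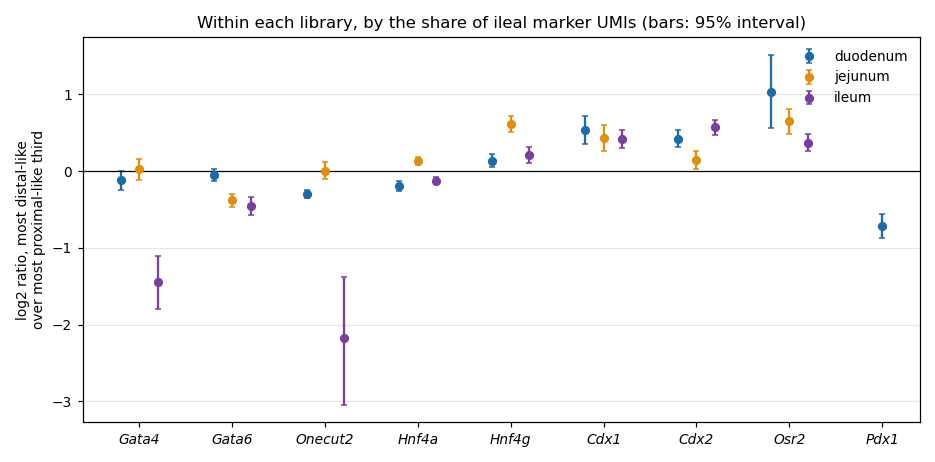
Log2 ratio of levels between the most distal-like and the most proximal-like enterocytes within each library, with 95% intervals from the UMI counts; Pdx1 is shown for duodenum. Gata4 and Onecut2 reach −1.45 and −2.18 in ileum, and Osr2, Cdx1 and Cdx2 lie above 0 in each library.

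Genes on the opposite strand of 3 members were counted in the files. Plut, a long noncoding RNA whose annotation overlaps Pdx1 with 0 shared exon bases, stood at 0.662 in duodenal enterocytes (2429 UMIs), 0.0519 in jejunal (202 UMIs) and 0.0133 in ileal ones. In jejunum it thus had 202 UMIs where Pdx1 had 4. In jejunal EECs, where Pdx1 had 7 UMIs, Plut had 0. For Gata6, 1010001N08Rik shares 93 exon bases and stood at 0.384, 0.256 and 0.0648 in enterocytes, the same order as Gata6. Whether counting used the strand is not given in the sources used here, so reads in those shared bases cannot be told apart. Hnf4aos shares 0 exon bases with Hnf4a and stood at 0.0311, 0.0833 and 0.0222, highest in jejunum, an order that differs from that of Hnf4a.

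Among 10 family relatives, Gata5 and Zfpm1 were the ones at 0.1 or more per 10000 in enterocytes. Gata5, the third GATA factor of the gut, stood at 0.510, 0.916 and 0.948, lowest where Gata4 and Gata6 were highest. Zfpm1, a cofactor of GATA proteins, stood at 1.42, 1.34 and 0.176, with its drop past the jejunum as for Gata4. In T cells Zfpm1 stood at 0.544, 0.410 and 0.335, in ileum above the enterocyte level. The part of free RNA in its ileal enterocyte level was not tested. Gata5 and Zfpm1 were higher at the villus tip in the edgeR fit with TMM scaling (Gata5 0.69 ± 0.15, adjusted p = 0.00422, and Zfpm1 1.24 ± 0.20, adjusted p = 0.000783). For these relatives the calls by plain library size are not given. Onecut3 was seen in EECs, at 0.909 in duodenum (65 UMIs), 0.643 in jejunum and 0.413 in ileum, while enterocytes had 0, 1 and 2 UMIs. In ileal EECs, Onecut2 had 0 UMIs where Onecut3 had 30.

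Of 25 other gut transcription factors fixed as a list, 20 were compared between duodenal and ileal enterocytes, and 3 were at least 2-fold higher in duodenum (Nr0b2, Pparg and Mlxipl) and 7 lower, among them Foxa1, Isx, Nr1h4, Nr5a2, Ehf and Prdm1. Their median log2 difference was −0.23 on the log2(level + 0.05) scale, against 0.15 for all genes. Mlxipl, a carbohydrate-responsive factor, went from 2.20 to 0.838 to 0.624, and Nr1h4, the bile acid receptor gene, from 0.398 to 0.185 to 1.01. All calls in the rest of this paragraph are from the fit with TMM scaling alone. In the class contrasts, 23 of the 25 were tested, and 9, 10, 12 and 15 were higher in enterocytes and 5, 5, 4 and 4 lower against ISC/proliferating, goblet, tuft and enteroendocrine cells. Over all genes 35.6%, 21.4%, 26.1% and 28.9% were higher and 31.0%, 18.5%, 23.0% and 26.6% lower. Sox9, a factor of crypt cells, was among the lower ones in each of the 4. Of the 39 Hox genes, which pattern the body axis, Hoxb9 alone reached 0.1 in enterocytes. It had 0 UMIs in duodenum and jejunum and 511 in ileum (0.130). The ileal level was 159.6 times that of 3 UMIs in the duodenal enterocytes, 0.000817. The exact Poisson limit of the duodenal count of 0 was higher, at 0.001005. In ileal EECs Hoxb9 stood at 2.24 and in ileal tuft cells at 1.46. In the villus fit, 6 of the 7 Hox genes tested, all of the Hoxb cluster, were lower at the tip, with log2 fold changes from −2.03 to −3.25. Against ISC/proliferating, goblet, tuft and enteroendocrine cells, 3, 1, 4 and 6 of those 7 were lower in enterocytes and 0 higher. Genes this low in enterocytes can pass the filter through sums in which they are higher. These counts are therefore not comparable with the shares over all genes given above. Hoxb9 is in each of these counts and in the villus count. It had 0 UMIs in each of the 5 epithelial classes of duodenum and jejunum, so its calls rest on the ileum library alone. For the other Hoxb genes, values by library are not given here.

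For each factor the genes with the most similar profile were taken over 16 library-by-class sums, by Pearson's r of log2(level + 0.05) among 10044 genes. The ileal Paneth cells (11 cells) are among these sums, with 0 UMIs of Gata4, Onecut2 and Pdx1. These sums share libraries, so r is given as a description. Gata4 was most like Adh6a (0.918) and Onecut2 (0.909), and Onecut2 most like Gata4. Pdx1 was most like Otop3 (0.876) and Meis2 (0.853), Osr2 most like Mylip (0.817), Hnf4a most like Ctnnb1 (0.939) and Hnf4g most like Sesn1 (0.907). Cdx1 was most like Prickle3 (0.906), Cdx2 most like Ash2l (0.951) and Gata6 most like Ankrd40 (0.936). Between members, the lowest r was −0.861, for Pdx1 and Osr2, and that of Onecut2 and Osr2 was −0.717.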

How the data were processed

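The authors deposited, per library, a sparse matrix of raw UMI counts per gene and cell barcode. Per the labels, Cell Ranger 3.0.2 and GRCm38 (mm10) were used; the annotation and strand setting are not given in the sources used here. Barcodes needed 800 to 50000 UMIs and 200 to 6000 genes, and those above 40% mitochondrial UMIs were dropped. No doublet caller was run. Libraries were integrated and clustered with Seurat 5.3.0 (2000 variable genes, members left out, 30 components, resolution 0.8), and clusters were named from marker lists by their leading genes, taken among genes found in at least 10% of a cluster's cells. Sums per library and class of at least 10 cells were tested with edgeR 4.0.16 (glmQLFTest, filterByExpr, TMM, mitochondrial genes left out, threshold 0.05); DESeq2 1.42.0 was an alternative. On simulated counts with 2-fold changes, 25.8%, 37.1%, 15.7% and 13.8% of changed genes were called in the ISC/proliferating, goblet, tuft and enteroendocrine contrasts (8948 genes) and 65% in the villus contrast (11314 genes). Named genes were the 9 members, fixed lists of relatives, other gut transcription factors and Hox genes, antisense partners, and the genes most like each member. Values of 1 gene of the list of other gut transcription factors are left out here. The members and lists were chosen with earlier results of these data known. In total 98518847, 87656078 and 78074516 UMIs were counted in duodenum, jejunum and ileum. Each library pools its mice, so p-values rest only on the spread among sums of these libraries and not on that between mice.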

Additional observations from a re-analysis of the deposited data

Results flagged for a closer look

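Osr2 differed in direction between segments along the villus. Its log2 ratio of UMIs per 10000, villus-tip against villus-bottom enterocytes, was 1.30 in the duodenum library (0.90 to 1.72) and −0.983 in the jejunum (−1.16 to −0.81) and −1.49 in the ileum library (−1.61 to −1.37). With TMM scaling these values were 1.49, −0.48 and −0.81, so the signs held. The duodenal value rests on 120 and 89 UMIs, and median depth there was 6549 UMIs at the tip and 11547 at the bottom, whose part in the result was not tested. The 31 thinned duodenal T cells had 0 Osr2 UMIs, with an exact binomial upper limit of 11.2% of cells. Thinned duodenal enterocytes had Osr2 in 1.83%, below that limit. These T cells were therefore too few to tell the classes apart, and the part of free RNA was not tested. With 1 library per segment, the difference between segments was not tested.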

How the results depend on the processing

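Genes called differed by over 1.5 times from the main count in 2 settings, 2812 against goblet cells without the jejunum library (range with each library left out 2812 to 3825, main 4401) and 3734 for the villus contrast without the library block (main 7140). The number of members at least 2-fold lower in jejunum than in ileum was 1 rather than 2 when levels were means over cells. Among members' log2 fold changes, 22 values under alternatives turned sign in the class contrasts, where 335 kept sign and call, and 3 turned in the villus contrast, where 76 kept both. The values that turned belong to contrasts in which the member was not called. By library size without TMM they were −0.498 (Cdx2) against ISC/proliferating cells, 0.0448 (Onecut2) and 0.476 (Pdx1) against goblet cells, −0.00544 (Pdx1) and −0.00585 (Osr2) against tuft cells, and −0.215 (Onecut2), −0.341 (Cdx1) and −0.363 (Cdx2) against enteroendocrine cells. By DESeq2 they were −0.165 (Cdx2, ISC/proliferating), −0.365 (Pdx1, tuft), −0.0568 (Cdx2, enteroendocrine) and 0.0879 (Osr2, villus). Pdx1 against goblet cells was 0.0718 with no gene filter, 0.561 with no library block, 0.276 at most 20% mitochondrial UMIs and 0.184 without the 10% of cells with most enterocyte marker UMIs, and Onecut2 against enteroendocrine cells −0.0287 at most 20%. With each library left out the ranges were −0.0741 to 0.246 (Cdx2, ISC/proliferating), 0.104 to 0.688 (Pdx1, goblet), −0.151 to 0.555 (Osr2, goblet), −0.485 to 0.643 (Pdx1, enteroendocrine), −0.000799 to 0.285 (Cdx1, enteroendocrine) and −0.655 to 0.349 (Osr2, villus). The causes were not tested, apart from the scaling itself. Removing the cluster led by Gm26917, an alternative chosen after seeing the data, turned no sign and changed no call, and moved the ileal enterocyte levels of Hnf4a to 5.32, Hnf4g to 1.12, Cdx1 to 0.956 and Osr2 to 1.05. Without the library block, calls were lost for Gata4, Onecut2, Cdx1 and Osr2 against ISC/proliferating cells, Gata4, Hnf4a and Cdx2 against goblet cells, Gata4 and Onecut2 against tuft cells, Gata4 against enteroendocrine cells, and in the villus contrast for Gata4, Gata6, Onecut2, Hnf4g and Cdx1. With DESeq2, Onecut2 and Osr2 against ISC/proliferating cells were not called (adjusted p of 0.176 and 0.120). Adding unnamed clusters with mostly enterocyte signal gave no value, as there were 0 such clusters. No paired analysis was possible because each segment has 1 library with no replicate number, where segments are compared; the class and villus contrasts were fitted within libraries. Counting error is widest for Pdx1 outside duodenum, at 4 UMIs in each of the other enterocyte sets, and for the classes with few cells. Of the members' enterocyte levels under alternatives, 65 moved beyond counting error and 70 did not.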
